A study of Mus musculus with 16 samples.

Results

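The effect of alternate-day fasting in tumours already under enzalutamide was measured by comparing 4 ADF+ENZ libraries with 4 ENZ libraries, chosen by their treatment labels, out of 16 libraries in all. The comparison covered every expressed gene, 18946 of the 55414 gene IDs in the count table. All tumours grew from B6MyC-CaP, a single mouse prostate cancer line derived from the Hi-MYC transgenic model on a C57BL/6 background, after implantation under the skin of male C57BL/6 mice aged 6 weeks. ENZ mice were given enzalutamide by oral gavage every day at 20 mg/kg. ADF+ENZ mice were given the same drug and dose and alternated 24 h of fasting with 24 h of free feeding. The groups without drug, used here only to set the fasting effect beside that in undrugged tumours, were Vehicle (n = 4) and ADF (n = 4), the latter on the same fasting cycle. So both groups of the main comparison carry the drug, and they differ in feeding. The sources used here do not give the day of the cycle on which tumours were collected. No label ties each tumour to a mouse of its own, so that p-values here speak of the spread among the sampled tumours and of nothing wider. The title of the series concerns translation, which RNA counts do not measure.

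As background, enzalutamide is an antiandrogen, a drug that blocks the androgen signalling on which most prostate cancers depend. Fasting lowers insulin, which frees FOXO transcription factors to enter the nucleus, raises circulating glucocorticoids and shifts tissues from glucose to fatty acids. Androgens and glucocorticoids act through closely related DNA elements and induce a number of genes in common, among them Fkbp5 and Zbtb16.

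The ENZ libraries held 10630096 to 23558532 gene counts each and the ADF+ENZ libraries 10072489 to 25505655. The luminal keratin Krt8 was measured at 361 to 661 CPM (the deposited counts scaled per library by TMM to CPM, the unit used for levels throughout) in ENZ and 206 to 646 CPM in ADF+ENZ. Pbsn, which encodes probasin and defines differentiated prostate luminal cells, had 0 counts over all 16 libraries. Library make-up differed between the groups. Ambiguous reads, which fall on more than 1 gene, were 4.11 to 5.26% of reads in ENZ and 3.44 to 3.82% in ADF+ENZ, with no overlap (exact two-sided permutation test, p = 0.0286, the smallest that 70 assignments allow; 0.200 after adjustment over 7 measures). ADF+ENZ replicate 3 stood apart. It had the fewest counts of the 8 libraries, 16.7% of reads not aligned against 8.13 to 12.1% in the others, and a first principal component score of 39.7 where the other 7 lay between 0.786 and 17.6. Where a gene is given with its log2 change and adjusted p in brackets, "without replicate 3" marks the adjusted p with this library left out.

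With fasting under enzalutamide, 206 genes changed at an adjusted p under 0.05 (edgeR quasi-likelihood test, Benjamini-Hochberg), 1.09% of those tested. Of these, 154 (0.813%) were higher and 52 (0.274%) were lower in ADF+ENZ. Most changes were small: 12 genes rose and 11 fell by more than 1 on the log2 scale, and the median absolute change of the 206 was 0.55. The CPM of the groups did not overlap for 197 of the 206, against 1642 genes (8.67%) over all genes tested, 4.96% with ADF+ENZ higher and 3.71% with it lower. The 206 were called on these same values, so their lack of overlap follows largely from the call and is no separate support. The median log2 change of all genes was -0.01.

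**Figure D1:**
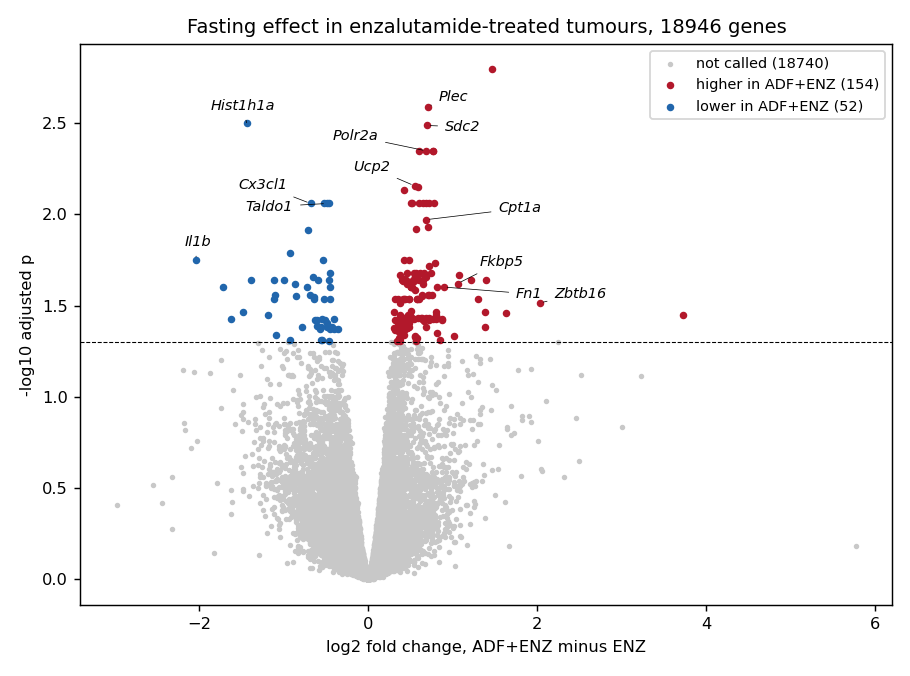
Each point is 1 of the 18946 genes, with the log2 fold change of ADF+ENZ minus ENZ on the x axis and -log10 of the adjusted p on the y axis, and the dashed line marks an adjusted p of 0.05. The 154 genes that rose (red) and the 52 that fell (blue) lie mostly within 1 log2 unit of 0, and the most certain named change is that of Plec.

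The number of genes that passed rested on single libraries. It was 20 without ADF+ENZ replicate 3 (0.103% of 19354 genes), 45 without replicate 1, 358 without replicate 2 and 277 without replicate 4. Leaving out ENZ replicates 1 to 4 in turn gave 111, 120, 36 and 41 genes. ADF+ENZ replicate 3 was the highest of its group for 112 of the 154 genes that rose and the lowest for 29 of the 52 that fell. All 206 kept their direction without it, and their median absolute log2 change was then 0.49. All 20 genes that passed without it were among the 206. DESeq2 called 693 genes with all libraries (3.66%) and 285 without replicate 3 (1.47%), and limma-voom 302 (1.59%) and 113 (0.584%).

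**Figure D2:**
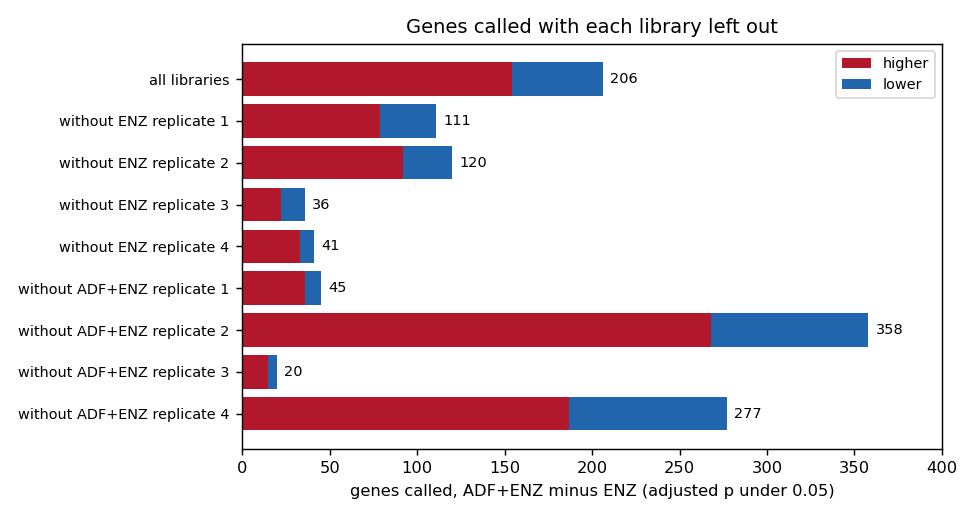
Bars show the number of genes that passed at an adjusted p under 0.05 for ADF+ENZ minus ENZ with all libraries and with each of the 8 libraries left out, split into higher (red) and lower (blue). The count falls from 206 to 20 without ADF+ENZ replicate 3 and rises to 358 without ADF+ENZ replicate 2.

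Of the 206, 18 passed whichever of the 8 libraries was left out, 13 higher and 5 lower in ADF+ENZ. Plec, the gene of the cytolinker plectin, measured 1789, 1801, 1694 and 1697 CPM in the ENZ libraries and 2624, 2814, 3122 and 2806 CPM in the ADF+ENZ libraries. The groups were far apart relative to their spread (log2 change 0.70 ± 0.09 SE, adjusted p = 0.00257, 0.0171 without replicate 3). Sdc2, which encodes the heparan sulphate proteoglycan syndecan-2, measured 189.5, 238, 245 and 246 CPM in the ENZ libraries and 396, 323, 396 and 371 CPM in the ADF+ENZ libraries. Its lowest ADF+ENZ library was above its highest ENZ library (log2 change 0.69 ± 0.10 SE, adjusted p = 0.00326, 0.0282 without replicate 3). Chst11, an enzyme that sulphates chondroitin, measured 59.6, 65.9, 68.9 and 68.4 CPM in the ENZ libraries and 128, 80.8, 133 and 107 CPM in the ADF+ENZ libraries, also without overlap (log2 change 0.77 ± 0.11 SE, adjusted p = 0.00449, 0.0282 without replicate 3). Tgfbr3, the co-receptor betaglycan, stood at 372, 418, 326 and 328 CPM in the ENZ libraries and 568, 553, 819.6 and 535 CPM in the ADF+ENZ libraries. Replicate 3 was the highest by a wide margin, and the other 3 were still above all ENZ libraries (log2 change 0.78 ± 0.13 SE, adjusted p = 0.00872, 0.0422 without replicate 3). Notch2 encodes a Notch receptor and was named after its values were seen. It measured 372, 431, 373 and 353 CPM in the ENZ libraries and 512, 546, 766 and 571 CPM in the ADF+ENZ libraries, again with replicate 3 highest (log2 change 0.65 ± 0.11 SE, adjusted p = 0.00872, 0.0307 without replicate 3).

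Polr2a, the largest subunit of RNA polymerase II, gave 165, 229.9, 197 and 194 CPM in the ENZ libraries and 314, 286, 358 and 311 CPM in the ADF+ENZ libraries. No ENZ library reached the lowest ADF+ENZ library (log2 change 0.69 ± 0.10 SE, adjusted p = 0.00449, 0.0282 without replicate 3). Erlec1, an endoplasmic reticulum lectin that takes part in the disposal of misfolded glycoproteins, gave 63.3, 63.7, 63.5 and 53.9 CPM in the ENZ libraries and 98.0, 81.9, 102 and 90.3 CPM in the ADF+ENZ libraries (log2 change 0.60 ± 0.09 SE, adjusted p = 0.00449, 0.0282 without replicate 3). The other genes that rose and passed in all 8 such fits were Micall1, an adaptor of endocytic recycling (log2 change 0.77 ± 0.11 SE, adjusted p = 0.00449, 0.0282 without replicate 3), Sipa1l3 (log2 change 0.59 ± 0.09 SE, adjusted p = 0.00706, 0.0282 without replicate 3), the zinc finger gene Zfp516 (log2 change 0.43 ± 0.07 SE, adjusted p = 0.00739, 0.0432 without replicate 3) and Ucp2, described with the fuel genes. Ptgfrn, which encodes an immunoglobulin family membrane protein, and an ID with no symbol, ENSMUSG00000118671, also passed in all 8 and were named after their values were seen.

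The 5 genes that fell in every such fit were Hist1h1a, Cx3cl1, Hexa, Taldo1 and Hnrnpa2b1. Hist1h1a, a linker histone gene, measured 14.1, 13.8, 17.9 and 16.7 CPM in the ENZ libraries and 6.62, 5.44, 4.60 and 6.22 CPM in the ADF+ENZ libraries. Each ADF+ENZ library was under 13.8 CPM, the lowest ENZ value (log2 change -1.44 ± 0.19 SE, adjusted p = 0.00315, 0.0209 without replicate 3). Histone H1 genes are near copies of one another, so the split of reads between them is uncertain. Hexa, a subunit of the lysosomal enzyme beta-hexosaminidase, measured 182, 156, 168 and 172 CPM in the ENZ libraries and 115, 109, 114 and 133 CPM in the ADF+ENZ libraries (log2 change -0.52 ± 0.09 SE, adjusted p = 0.00872, 0.0422 without replicate 3). Taldo1, the transaldolase of the pentose phosphate pathway, measured 82.7, 87.6, 90.1 and 92.7 CPM in the ENZ libraries and 63.9, 65.8, 58.3 and 64.0 CPM in the ADF+ENZ libraries (log2 change -0.49 ± 0.08 SE, adjusted p = 0.00872, 0.0487 without replicate 3). Both were lower in all 4 ADF+ENZ libraries than in any ENZ library. Hnrnpa2b1, an RNA-binding protein gene named after its values were seen, was at 281 to 322 CPM in ENZ and 195 to 238 CPM in ADF+ENZ (log2 change -0.47 ± 0.08 SE, adjusted p = 0.00872, 0.0432 without replicate 3).

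Among steroid-responsive genes, 4 of the 24 tested members of a list of glucocorticoid-induced genes rose (16.7%) and 0 fell. Over all genes tested, 0.813% rose and 0.274% fell. The list's median log2 change was 0.23. Those 4 were Fkbp5, Zbtb16, Klf9 and Dusp1. The groups did not overlap, with ADF+ENZ higher, for 8 of the 24, where 4.96% of all genes did so. Without ADF+ENZ replicate 3, 0 of the 24 passed, the median was 0.21 and 9 did not overlap (5.86% of all genes, with 5.15% lower without overlap). DESeq2 with all libraries called 7 higher and 0 lower. In fasting without drug (ADF minus Vehicle) 1 of the 24 rose and 5 fell, around a median of -0.38. Of all genes, 4.05% rose and 4.96% fell there.

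Fkbp5 encodes a cochaperone of steroid receptors and is induced by androgens and glucocorticoids. It measured 203, 155, 143 and 180.4 CPM in the ENZ libraries and 402, 294, 451 and 273 CPM in the ADF+ENZ libraries. All 4 ADF+ENZ libraries were above all 4 ENZ libraries, with the highest value in replicate 3 (log2 change 1.06 ± 0.20 SE, adjusted p = 0.0240, 0.107 without replicate 3). The ADF+ENZ levels overlapped those of Vehicle, which were 306, 422, 444 and 429 CPM. Zbtb16, the gene of the transcription factor PLZF, had the largest rise among genes that passed at a mean of at least 1 CPM, from 21.2, 10.9, 9.07 and 19.4 CPM in ENZ to 81.2, 76.3, 34.2 and 55.2 CPM in ADF+ENZ. Here replicate 3 was the lowest of its group and still above every ENZ library (log2 change 2.03 ± 0.39 SE, adjusted p = 0.0306, 0.0537 without replicate 3). Its Vehicle levels were 93.1, 79.8, 101 and 101 CPM. Klf9, a zinc finger factor induced by glucocorticoids, measured 194, 126, 134 and 111 CPM in the ENZ libraries and 242, 231, 276 and 235 CPM in the ADF+ENZ libraries. ENZ replicate 1 was close to the ADF+ENZ group and the other 3 were well under it (log2 change 0.80 ± 0.17 SE, adjusted p = 0.0374, 0.164 without replicate 3). Dusp1, a phosphatase that switches off MAP kinases, was at 73.2 to 96.6 CPM in ENZ and 110.4 to 146 CPM in ADF+ENZ (log2 change 0.55 ± 0.13 SE, adjusted p = 0.0468, 0.198 without replicate 3).

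Other classical targets did not pass. Sgk1, a kinase gene induced by glucocorticoids, was at 138, 141, 121 and 107 CPM in ENZ and 216, 208, 301 and 183 CPM in ADF+ENZ, without overlap (log2 change 0.84 ± 0.23 SE, adjusted p = 0.100, 0.321 without replicate 3). Tsc22d3, which encodes the glucocorticoid-induced leucine zipper protein, was at 78.8, 40.7, 34.0 and 28.8 CPM in ENZ and 84.7, 90.4, 85.7 and 75.3 CPM in ADF+ENZ. ENZ replicate 1 lay within the ADF+ENZ range and the other 3 ENZ libraries lay below it (log2 change 0.89 ± 0.31 SE, adjusted p = 0.186, 0.394 without replicate 3). Nr3c1, the glucocorticoid receptor gene, had a log2 change of 0.09 ± 0.10 SE (adjusted p = 0.688) and did not pass. Of 79 tested genes of an androgen response list, 4 rose and 0 fell (5.06%, against 1.09% of all genes), around a median of 0.03. Besides Fkbp5 and Zbtb16 these were Herc3, a ubiquitin ligase gene (log2 change 0.77 ± 0.17 SE, adjusted p = 0.0374, 0.164 without replicate 3), and Mertk. Mertk is a receptor tyrosine kinase that is also a macrophage marker. It measured 30.9, 37.0, 29.6 and 36.2 CPM in the ENZ libraries and 56.5, 55.4, 49.3 and 57.4 CPM in the ADF+ENZ libraries, without overlap (log2 change 0.71 ± 0.12 SE, adjusted p = 0.0117, 0.0328 without replicate 3), and passed with and without that library. The macrophage list as a whole had 1 of 12 markers changed (8.33%, against 1.09% of all genes), Mertk itself. The list's summed CPM was 2014 to 2831 in ENZ and 2056 to 2888 in ADF+ENZ.

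The promoter windows of 3 genes of these lists are shown because Fkbp5, Klf9 and Bcl6 rose and differed from their response to fasting without drug. Each window runs from 250 bases before to 50 after a RefSeq transcript start (RefSeq, GRCm38.p6, 5′ to 3′ on the gene's strand), and capitals mark the hexamer of androgen and glucocorticoid response elements, AGAACA, or the FOXO core, GTAAACA, searched on both strands.
Fkbp5 (chr17:28486100-28486399, minus strand): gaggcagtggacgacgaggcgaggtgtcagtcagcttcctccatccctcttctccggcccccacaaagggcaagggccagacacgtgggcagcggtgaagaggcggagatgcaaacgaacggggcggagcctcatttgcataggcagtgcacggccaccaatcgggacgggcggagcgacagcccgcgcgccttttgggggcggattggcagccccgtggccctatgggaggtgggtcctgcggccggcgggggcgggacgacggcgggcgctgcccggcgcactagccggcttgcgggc
Klf9 (chr19:23140976-23141275, plus strand): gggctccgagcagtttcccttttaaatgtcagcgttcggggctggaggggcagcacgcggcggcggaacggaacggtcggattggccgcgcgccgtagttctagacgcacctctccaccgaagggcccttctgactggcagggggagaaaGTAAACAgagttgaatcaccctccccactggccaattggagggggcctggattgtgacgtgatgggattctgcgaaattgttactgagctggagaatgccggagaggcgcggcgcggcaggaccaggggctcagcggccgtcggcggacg
Bcl6 (chr16:23981234-23981533, minus strand): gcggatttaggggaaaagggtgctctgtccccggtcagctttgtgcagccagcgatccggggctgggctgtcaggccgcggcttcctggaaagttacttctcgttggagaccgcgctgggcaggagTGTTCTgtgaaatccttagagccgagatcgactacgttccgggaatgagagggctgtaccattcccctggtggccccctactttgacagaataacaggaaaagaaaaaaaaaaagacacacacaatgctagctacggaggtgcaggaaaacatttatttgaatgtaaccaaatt
The Klf9 window held 1 FOXO core, and the Bcl6 window shown 1 hexamer, read as TGTTCT on the printed strand. A second Bcl6 window in the table, at chr16:23988803-23989102, held no hexamer, and the Fkbp5 window held neither motif. Of 27025 genes with a window in the RefSeq table, 21.3% held the hexamer and 4.05% the FOXO core. Among the 11628 of them that were tested the shares were 15.5% and 3.23%. Among the 105 genes that rose and had a window, the shares were 8.57% and 3.81%.

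A few genes from a list of fasting-induced genes rose in ADF+ENZ. Of 26 tested FOXO factors and fasting-induced targets, 4 rose and 0 fell (15.4%, where 0.813% of all genes rose and 0.274% fell), and the median log2 change was 0.21, against -0.01 over all genes. Without ADF+ENZ replicate 3, 0 passed and the median was 0.21. In fasting without drug (ADF minus Vehicle) 0 of the 26 rose and 2 fell, where 4.05% of all genes rose and 4.96% fell. The list median there was -0.05, against 0.01 over all genes. Fbxo32, a muscle-atrophy ubiquitin ligase gene that FOXO factors induce, measured 22.1, 27.0, 26.8 and 25.9 CPM in the ENZ libraries and 45.8, 34.5, 42.5 and 48.4 CPM in the ADF+ENZ libraries. The ranges did not overlap (log2 change 0.75 ± 0.14 SE, adjusted p = 0.0210, 0.0796 without replicate 3). Pnpla2 encodes adipose triglyceride lipase, which starts the breakdown of stored fat. It measured 37.2, 43.3, 35.9 and 33.8 CPM in the ENZ libraries and 64.2, 55.8, 66.7 and 55.1 CPM in the ADF+ENZ libraries (log2 change 0.69 ± 0.13 SE, adjusted p = 0.0220, 0.0997 without replicate 3). Bcl6, a transcriptional repressor, measured 36.4, 42.6, 41.3 and 37.6 CPM in the ENZ libraries and 49.5, 65.2, 76.8 and 54.4 CPM in the ADF+ENZ libraries, and the lowest ADF+ENZ library was replicate 1 (log2 change 0.63 ± 0.14 SE, adjusted p = 0.0375, 0.180 without replicate 3). The fourth was Klf9. Of 25 genes of insulin and IGF signalling, 1 rose (4.0%, against 0.813% of all genes) and 0 fell. It was Pik3r1, the regulatory subunit of PI3 kinase, at 94.4 to 136 CPM in ENZ and 151 to 208 CPM in ADF+ENZ (log2 change 0.65 ± 0.13 SE, adjusted p = 0.0240, 0.115 without replicate 3). Irs2 (0.43 ± 0.23 SE, adjusted p = 0.395), Insr (0.31 ± 0.20 SE, 0.499) and Igf1r (0.27 ± 0.11 SE, 0.258), given as log2 change and adjusted p, did not pass.

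In the list of fatty acid oxidation, ketone bodies and PPAR targets, 2 of 29 tested genes rose and 1 fell. That was 10.3%, against 1.09% of all genes, around a list median of 0.19. Cpt1a, the enzyme that admits long-chain fatty acids to mitochondria, measured 181, 242, 178 and 205 CPM in the ENZ libraries and 316, 305, 379.9 and 295 CPM in the ADF+ENZ libraries. The 2 groups did not meet (log2 change 0.69 ± 0.12 SE, adjusted p = 0.0107, 0.0602 without replicate 3). Ucp2, a carrier of the mitochondrial inner membrane, measured 188, 215, 189 and 199 CPM in the ENZ libraries and 319, 284, 288 and 266 CPM in the ADF+ENZ libraries. It passed in all leave-one-out fits (log2 change 0.55 ± 0.09 SE, adjusted p = 0.00698, 0.0282 without replicate 3). Oxct1, which activates ketone bodies for use as fuel, fell, from 167, 191, 212 and 223 CPM in ENZ to 124, 136, 121 and 168 CPM in ADF+ENZ. Replicate 4 of ADF+ENZ overlapped the lowest ENZ library (log2 change -0.53 ± 0.11 SE, adjusted p = 0.0290, 0.129 without replicate 3). Angptl4, an inhibitor of lipoprotein lipase, was at 76.4, 108, 51.5 and 30.3 CPM in ENZ and 211, 169, 232 and 121 CPM in ADF+ENZ. The groups did not overlap, but the gene missed the threshold (log2 change 1.47 ± 0.38 SE, adjusted p = 0.0861, 0.259 without replicate 3). Pdk4, which restrains pyruvate oxidation, was at 0.0895, 0.205, 0.120 and 0 CPM in ENZ and 1.39, 1.53, 0.657 and 0.283 CPM in ADF+ENZ. At so few counts its fitted log2 change is imprecise, and it did not pass (adjusted p = 0.0765). Of 20 genes of fatty acid synthesis and 25 of cholesterol synthesis, 0 passed, where 1.09% of all genes did. Fasn, the fatty acid synthase gene, had a log2 change of 0.40 ± 0.12 SE (adjusted p = 0.103).

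**Figure D3:**
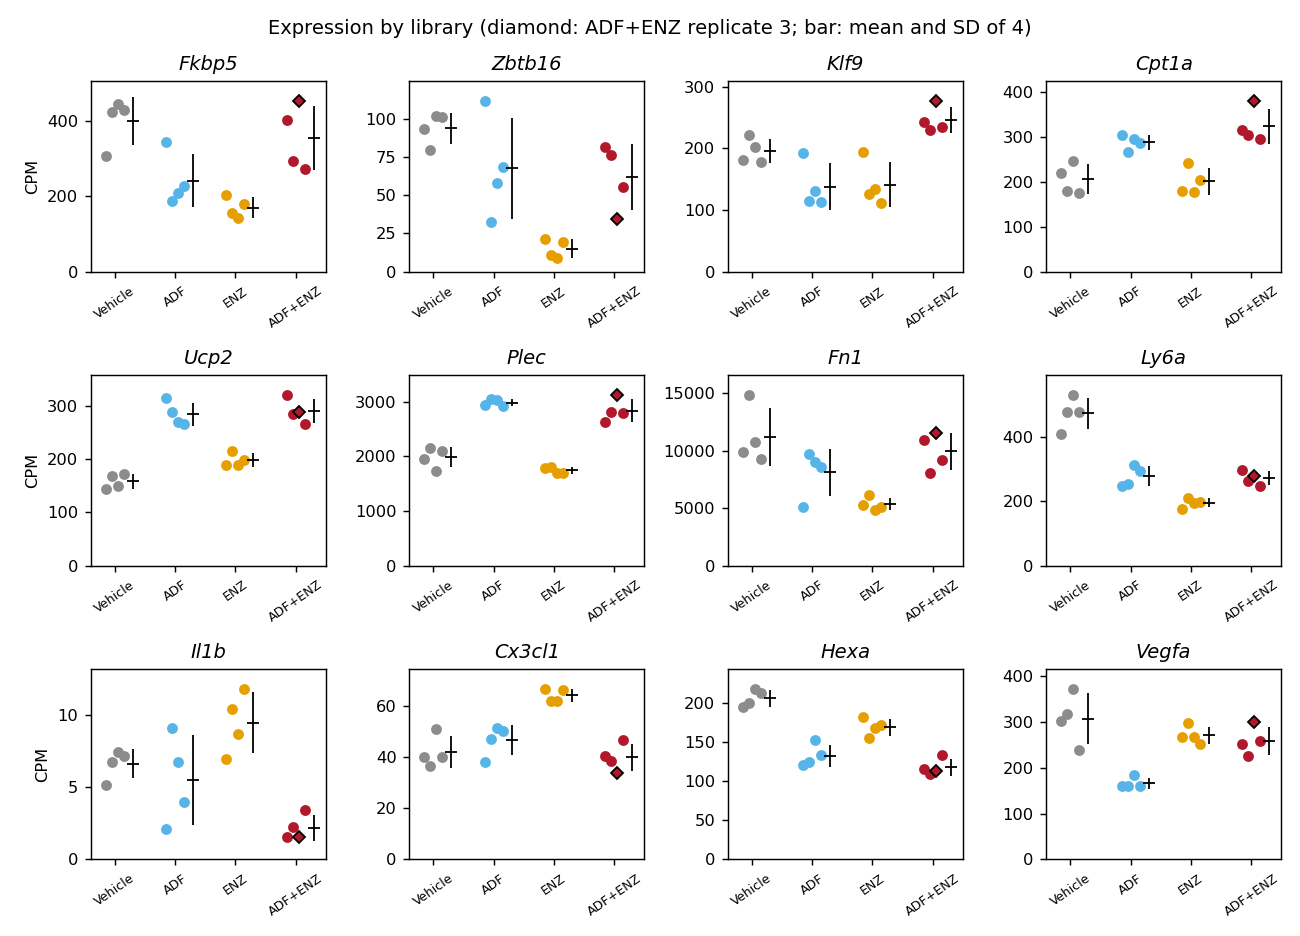
Each panel shows TMM-scaled CPM (y axis, from 0) of 1 gene in the 16 libraries by group, with a point per library, a diamond for ADF+ENZ replicate 3 and a bar for the mean and SD of 4. Fkbp5, Klf9, Fn1 and Ly6a are lower in ENZ than in ADF+ENZ and lower in ADF than in Vehicle on average, whereas Plec, Ucp2 and Cpt1a are higher in both fasted groups.

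Genes of the extracellular matrix were among the largest rises. Fn1, the gene of fibronectin, measured 5304, 6124, 4880.2 and 5120.5 CPM in the ENZ libraries and 10973, 8088, 11555 and 9232 CPM in the ADF+ENZ libraries. The lowest ADF+ENZ library was replicate 2, above all of ENZ (log2 change 0.89 ± 0.18 SE, adjusted p = 0.0250, 0.124 without replicate 3). Vcan, the proteoglycan versican, measured 955, 808, 673 and 819 CPM in the ENZ libraries and 1322, 1312, 1958 and 1395 CPM in the ADF+ENZ libraries. Replicate 3 was far above the other 3 (log2 change 0.88 ± 0.19 SE, adjusted p = 0.0374, 0.164 without replicate 3). Of 38 genes in the list of collagens and matrix, 2 rose and 0 fell (5.26%, against 1.09% of all genes). The list median was 0.25. Without ADF+ENZ replicate 3, 0 passed and the median was 0.29. The second was Timp2, an inhibitor of metalloproteinases, at 738 to 891 CPM in ENZ and 852 to 1405 CPM in ADF+ENZ (log2 change 0.55 ± 0.13 SE, adjusted p = 0.0464, 0.203 without replicate 3). Fibrillar collagen genes did not pass. Col1a1 (0.43 ± 0.22 SE, adjusted p = 0.380) and Col3a1 (0.47 ± 0.17 SE, 0.185), as log2 change and adjusted p, were far from the threshold. Col1a2 came closest, at 1602, 1477, 1483 and 1413 CPM in ENZ and 2721, 1901, 2455 and 1839 CPM in ADF+ENZ (log2 change 0.58 ± 0.14 SE, adjusted p = 0.0512, 0.194 without replicate 3).

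Beside this, the summed level of fibroblast markers was 9409 to 10456 CPM in ENZ and 11528 to 13432 CPM in ADF+ENZ, with no overlap (exact two-sided permutation test, p = 0.0286; 0.486 after adjustment over 17 lists). Of the 11 markers, 1 rose (9.09%, against 0.813% of all genes), and it was Pdgfra, a growth factor receptor of fibroblasts and other mesenchymal cells. Pdgfra measured 401, 537, 429 and 320.2 CPM in the ENZ libraries and 695, 668, 808 and 610.1 CPM in the ADF+ENZ libraries (log2 change 0.72 ± 0.16 SE, adjusted p = 0.0381, 0.177 without replicate 3). The list shares Col1a1, Col1a2, Col3a1, Dcn, Lum and Postn with the matrix list. Dcn, named like the collagens after its value was seen, had a log2 change of 0.05 ± 0.13 SE (adjusted p = 0.889). The part of fibroblast content in the matrix result was not tested, and in bulk tissue fewer or more cells of a type cannot be told apart from less or more RNA per cell.

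Inflammatory genes supplied the largest fall. Il1b, the gene of the cytokine interleukin-1 beta, measured 6.98, 10.4, 8.65 and 11.8 CPM in the ENZ libraries and 1.55, 2.26, 1.53 and 3.44 CPM in the ADF+ENZ libraries. The groups were well apart, and the fall was the largest among genes that passed at a mean of at least 1 CPM (log2 change -2.04 ± 0.36 SE, adjusted p = 0.0179, 0.0796 without replicate 3). Cx3cl1, the chemokine fractalkine, measured 66.5, 61.8, 61.7 and 66.2 CPM in the ENZ libraries and 40.3, 38.3, 33.9 and 46.7 CPM in the ADF+ENZ libraries. It fell in all leave-one-out fits (log2 change -0.68 ± 0.11 SE, adjusted p = 0.00872, 0.0488 without replicate 3). These were the 2 of 34 genes that passed in the list of cytokines, chemokines and acute phase genes. That was 5.88%, against 1.09% of all genes, and the list had a median log2 change of -0.22. Zbp1, an interferon-induced nucleic acid sensor, was the 1 of 43 interferon-stimulated genes that passed (2.33%, against 1.09% of all genes). It was at 34.9 to 44.0 CPM in ENZ and 22.4 to 27.2 CPM in ADF+ENZ (log2 change -0.64 ± 0.13 SE, adjusted p = 0.0283, 0.119 without replicate 3). In that list 32 of 43 genes had negative log2 changes, against 9821 of all 18946 genes, and the median was -0.18. Markers of neutrophils, cells that make Il1b in many tissues, summed to 18.8 to 41.4 CPM in ENZ and 15.5 to 22.2 CPM in ADF+ENZ, with Mpo at 0 in all 8 libraries and 0 of 5 tested markers changed. Their part in the fall of Il1b was not tested.

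Bcl6b, Icam2 and Tal1 fell, while the endothelial gene Cd300lg, named after its values were seen, rose (log2 change 0.82 ± 0.17 SE, adjusted p = 0.0250, 0.0336 without replicate 3). Bcl6b, a repressor enriched in endothelium, measured 18.6, 20.1, 16.8 and 14.99 CPM in the ENZ libraries and 7.76, 9.22, 4.60 and 10.1 CPM in the ADF+ENZ libraries, with replicate 3 lowest (log2 change -1.12 ± 0.21 SE, adjusted p = 0.0229, 0.0601 without replicate 3). Icam2, an adhesion molecule of endothelium and leukocytes, measured 7.87, 6.42, 6.55 and 5.36 CPM in the ENZ libraries and 2.53, 2.85, 1.53 and 4.65 CPM in the ADF+ENZ libraries (log2 change -1.10 ± 0.23 SE, adjusted p = 0.0275, 0.0997 without replicate 3). Tal1, a transcription factor of blood and endothelial development, was at 4.92 to 7.03 CPM in ENZ and 2.12 to 4.17 CPM in ADF+ENZ (log2 change -0.93 ± 0.22 SE, adjusted p = 0.0491, 0.186 without replicate 3). All 3 lost their call without ADF+ENZ replicate 3. Of 12 endothelial markers 0 passed. Their median log2 change was -0.30, and -0.16 without ADF+ENZ replicate 3. Their summed CPM overlapped, at 514 to 968 in ENZ and 431 to 856 in ADF+ENZ, with the lowest value in replicate 3. In the list of angiogenesis ligands and receptors the median was -0.23 and 1 of 21 genes passed (4.76%, against 1.09% of all genes), Pdgfra, which rose.

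The remaining large changes came from genes of varied function. Rgma, a co-receptor of bone morphogenetic proteins, measured 56.3, 80.7, 69.6 and 53.5 CPM in the ENZ libraries and 192, 92.0, 242 and 115 CPM in the ADF+ENZ libraries, with replicate 3 highest and replicate 2 closest to ENZ (log2 change 1.30 ± 0.25 SE, adjusted p = 0.0290, 0.0997 without replicate 3). Tubb3, a beta-tubulin best known from neurons, measured 9.57, 15.2, 15.5 and 10.3 CPM in the ENZ libraries and 33.2, 18.1, 50.7 and 31.6 CPM in the ADF+ENZ libraries (log2 change 1.39 ± 0.28 SE, adjusted p = 0.0344, 0.115 without replicate 3). Jade2, part of histone acetyltransferase complexes, measured 99.0, 82.0, 81.1 and 83.6 CPM in the ENZ libraries and 208, 125, 246 and 146 CPM in the ADF+ENZ libraries (log2 change 1.07 ± 0.19 SE, adjusted p = 0.0215, 0.0689 without replicate 3). In all 3 the groups were separate and replicate 3 gave the highest value. Smaller or less abundant rises were found for St8sia6, a sialyltransferase (1.39 ± 0.32 SE), Pcdhb21, a protocadherin of a cluster of similar genes whose reads may be split (1.01 ± 0.24 SE), Lrrn4cl (0.88 ± 0.19 SE), Tmem71 (0.85 ± 0.20 SE) and BC024139 (1.63 ± 0.36 SE), all as log2 changes with adjusted p between 0.0347 and 0.0487. Falls included Kcne3, a potassium channel subunit (-1.39 ± 0.28 SE), Nr1h3, which encodes the oxysterol receptor LXR alpha (-0.85 ± 0.18 SE), Ptp4a3, a phosphatase (-0.87 ± 0.17 SE), Foxs1, a forkhead factor (-0.99 ± 0.20 SE), Styk1 (-0.93 ± 0.17 SE), Ppm1j (-1.19 ± 0.26 SE) and Exoc3l4 (-1.12 ± 0.24 SE), with adjusted p between 0.0162 and 0.0358. None of these 12 passed without ADF+ENZ replicate 3.

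Lists of growth, translation and cell cycle genes held few or no changed members. None passed among 45 translation factors, 79 cytosolic ribosomal proteins, 48 MYC-induced ribosome biogenesis genes, 40 genes of mTOR complexes and their regulators, 60 subunits of oxidative phosphorylation, 22 genes of the TCA cycle, 31 of glycolysis and pyruvate metabolism, 30 of the hypoxia response, 40 of mitosis, 25 p53 targets, 20 of antigen presentation, 16 clock genes and 14 of polyamine metabolism. Over all genes tested 1.09% passed, a share at which lists of this size hold few or no such genes. The median log2 changes of these lists ran from -0.07 in the hypoxia list to 0.08 in the lists of translation factors and ribosome biogenesis. Among 40 S phase genes 0 passed, 34 had negative changes (9821 of all 18946 genes did) and the median was -0.14. Other lists without a call leaned too. Positive changes were found for 31 of 45 translation factors, 37 of 48 ribosome biogenesis genes and 54 of 79 cytosolic ribosomal proteins, against 9125 of all genes. Negative ones were found for 21 of 31 glycolysis genes. Myc (0.26 ± 0.15 SE, adjusted p = 0.410), Eif4ebp1 (0.19 ± 0.26 SE, 0.778), Ccnd1 (-0.31 ± 0.17 SE, 0.385) and Mki67 (0.12 ± 0.14 SE, 0.740), as log2 change and adjusted p, did not pass. Myc here is the mouse gene, and no level of the line's transgene is given. Single members passed elsewhere: Slc6a9, a glycine transporter (log2 change 0.58 ± 0.12 SE, adjusted p = 0.0291, 0.147 without replicate 3), Hspa4l, a chaperone (log2 change 0.49 ± 0.10 SE, adjusted p = 0.0240, 0.0997 without replicate 3), Atg9a, which supplies membrane to autophagosomes (log2 change 0.40 ± 0.08 SE, adjusted p = 0.0229, 0.0997 without replicate 3), and the mitochondrial gene mt-Co3 (log2 change 0.49 ± 0.11 SE, adjusted p = 0.0357, 0.171 without replicate 3) rose, and Sdf2l1, an endoplasmic reticulum protein, fell (log2 change -0.57 ± 0.13 SE, adjusted p = 0.0423, 0.164 without replicate 3). Over all 34 lists, 20 of 1059 tested genes rose (1.89%, against 0.813% of all genes) and 8 fell (0.755%, against 0.274%).

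**Figure D4:**
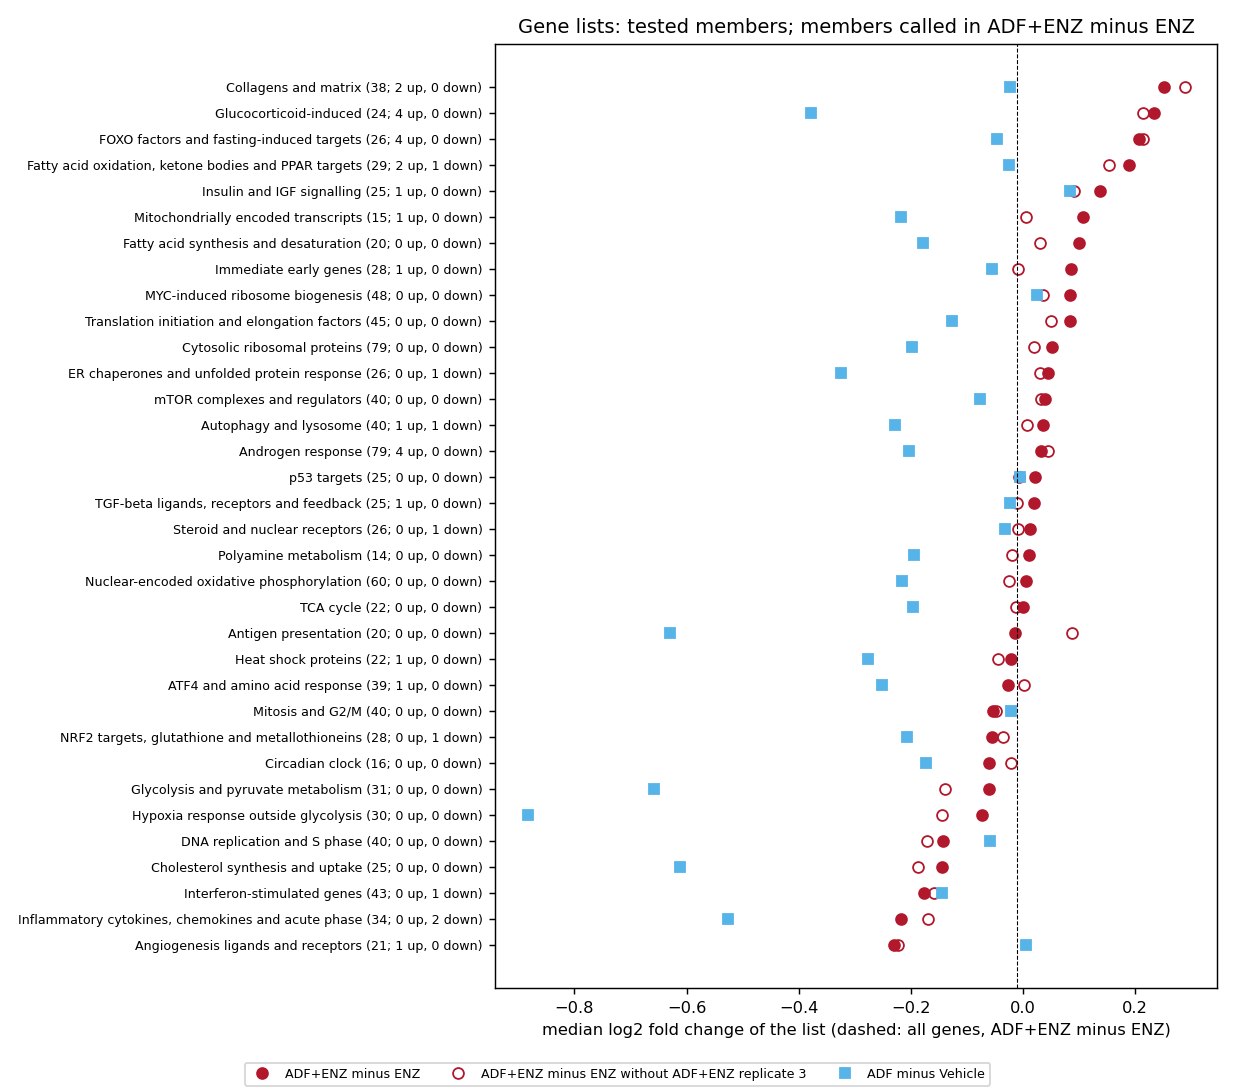
For each of the 34 gene lists the x axis gives the median log2 fold change of its tested members in ADF+ENZ minus ENZ (red), in the same comparison without ADF+ENZ replicate 3 (open) and in ADF minus Vehicle (blue squares), and the row label gives the members tested and changed. The matrix, glucocorticoid-induced and FOXO lists lie highest under enzalutamide, at 0.25, 0.23 and 0.21, and the hypoxia list, at -0.07, lies far from its value of -0.88 without drug.

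To learn which of these changes fasting also brought without drug, the 206 genes were read in ADF minus Vehicle, which uses 8 other libraries and in which 1707 genes passed (9.01%, 4.05% higher and 4.96% lower). That count was 610 without ADF replicate 4, 713 without Vehicle replicate 3, 777 without Vehicle replicate 2 and 1055 without ADF replicate 3. Of the 206, 37 passed there too (17.96% of the 206 and 2.17% of the 1707), 30 in the same direction and 7 in the opposite one. Plec was at 1953, 2162, 1740.2 and 2097 CPM in Vehicle and 2935, 3059.7, 3036 and 2922 CPM in ADF (log2 change 0.59, adjusted p = 0.00100). Ucp2 was at 143, 168, 149.6 and 171 CPM in Vehicle and 313, 287, 269.8 and 265 CPM in ADF (log2 change 0.85, adjusted p = 8.11e-05). Both rose on fasting with and without drug. Cpt1a also rose (0.49, adjusted p = 0.0165), Hexa and Oxct1 fell (-0.64 and -0.73, adjusted p = 3.38e-04 and 9.37e-04) and Notch2 rose (0.66, adjusted p = 0.00145). Across all genes the log2 changes of the 2 fasting comparisons had a Pearson correlation of 0.03 and a Spearman correlation of 0.01, a description over 18946 genes that are not independent replicates.

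The difference between the fasting effects, tested as an interaction, passed for 587 genes (3.10%, 2.18% positive and 0.918% negative), and 61 of the 206 were among them, 48 that rose and 13 that fell. The interaction contains the ADF+ENZ minus ENZ difference on which the 206 were called, so the count of 61 follows in part from that choice. The 587 fell to 148 without ADF replicate 4, 175 without ADF+ENZ replicate 3, 190 without Vehicle replicate 3, 209 without ADF+ENZ replicate 1 and 224 without Vehicle replicate 2, and rose to 908 without ADF+ENZ replicate 2. It was 294 to 391 without ADF replicate 2 or 3 or ENZ replicate 2, 3 or 4. Ly6a, the gene of the stem cell antigen Sca-1, had the smallest interaction p of the 206. It was at 409, 476, 529 and 477 CPM in Vehicle and 248, 254, 312 and 294 CPM in ADF, so that it fell on fasting without drug, and at 177, 211, 194 and 196 CPM in the ENZ libraries and 297, 262, 279.7 and 246 CPM in the ADF+ENZ libraries, so that it rose with drug. The interaction was 1.25 ± 0.14 SE on the log2 scale (adjusted p = 4.03e-04) and passed in all 16 leave-one-out fits. Fkbp5 had the same pattern, with 343, 188, 208 and 228 CPM in ADF (interaction 1.79 ± 0.28 SE, adjusted p = 0.00787). The other 5 genes that passed in opposite directions in the 2 comparisons were Tmem106b, Cblb and Aplp2, which rose with drug, and Exoc3l4 and Ddx11, which fell with drug. Fn1 was at 9912, 14837, 10797 and 9282 CPM in Vehicle and 5128, 9727, 9040.5 and 8604 CPM in ADF, where its change did not pass (-0.46, adjusted p = 0.112), and its interaction was 1.36 ± 0.26 SE (adjusted p = 0.0126). Klf9 (1.31 ± 0.25 SE, adjusted p = 0.0141), Zbtb16 (2.51 ± 0.53 SE, 0.0292) and Sdc2 (0.86 ± 0.14 SE, 0.00589) had positive interactions and Cx3cl1 a negative one (-0.84 ± 0.16 SE, 0.0128). Without ADF+ENZ replicate 3 the interactions of these 7 genes still passed, with adjusted p between 0.00201 and 0.0384, and that of Bcl6 did not (0.0853). All of the 7 but Zbtb16 passed the interaction in each of the 16 leave-one-out fits. Zbtb16 passed in 9, and its ADF levels were scattered, at 111, 32.3, 58.2 and 68.7 CPM.

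Glycolysis and hypoxia genes gave positive interactions, while 0 of either list passed in ADF+ENZ minus ENZ. In the hypoxia list 0 of 30 genes changed in ADF+ENZ minus ENZ, 18 fell in ADF minus Vehicle and 10 passed the interaction. In the glycolysis list these numbers were 0, 19 and 12 of 31. Over all genes tested 1.09% changed in ADF+ENZ minus ENZ, 4.96% fell in ADF minus Vehicle and 3.10% passed the interaction. Vegfa, the vascular growth factor, was at 267, 297, 267 and 252 CPM in ENZ and 252, 227, 300.5 and 259 CPM in ADF+ENZ, in overlapping ranges, while it was at 303, 319, 372 and 238 CPM in Vehicle and 161, 160.1, 184 and 159.6 CPM in ADF. Its interaction was 0.83 ± 0.16 SE (adjusted p = 0.0128), and those of Ldha and Hk2 were 0.77 ± 0.17 and 0.69 ± 0.17 SE (adjusted p = 0.0256 and 0.0326). Without ADF+ENZ replicate 3, Vegfa kept the call (0.0355) and Ldha and Hk2 did not (0.0616 and 0.0675, all adjusted p). Library make-up moved with these results. Reads in no feature were 30.3 to 36.7% in ADF and 21.2 to 27.9% in both drug groups, and with that share as a covariate in edgeR 0 genes passed the interaction (1014 at an unadjusted p under 0.05; DESeq2 without the covariate called 1363), 43 passed ADF+ENZ minus ENZ and 6 passed ADF minus Vehicle. The share was higher in every ADF library than in any Vehicle library, so the 2 cannot be told apart there.

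**Figure D5:**
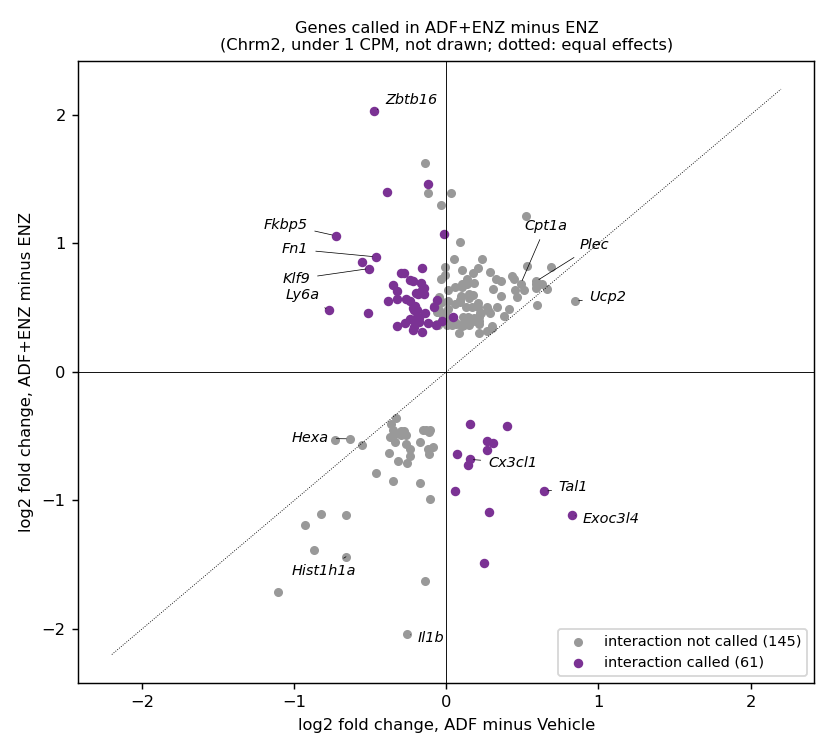
Each point is 1 of the genes that passed in ADF+ENZ minus ENZ, with its log2 fold change in ADF minus Vehicle on the x axis and in ADF+ENZ minus ENZ on the y axis. Purple points are the 61 genes that also passed the interaction, which lie mainly left of 0 when they rose with drug and right of 0 when they fell, and grey points are the other 145, of which Chrm2 is not drawn. The place of the purple points follows in part from their choice by both tests.

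Median transcript length was not the same for genes that rose and genes that fell. Genes that rose had a median transcript length of 5568 bases, against 2823 over all genes tested and 2570 for genes that fell, and a median GC content of 48.7%, against 49.0% and 52.9%. Changed genes were also more abundant: the median level was 131 CPM for genes that rose and 20.1 CPM for genes that fell, against 11.2 CPM over all genes tested. Over all genes the median log2 change went from -0.05 in the shortest 20% of transcripts to 0.05 in the longest, and from -0.07 to 0.04 without ADF+ENZ replicate 3. With trends on length and GC content removed, 118 genes passed (0.628%), 108 of them among the 206, and 8 (0.0417%) when ADF+ENZ replicate 3 was also left out. Plec, Sdc2, Polr2a, Fkbp5, Zbtb16, Cpt1a, Fn1 and Il1b kept an adjusted p under 0.05 with the trends removed, whereas Vcan, Klf9, Dusp1 and Pik3r1 did not, at log2 changes of 0.78, 0.81, 0.58 and 0.61 where they had 0.88, 0.80, 0.55 and 0.65 before. With the share of ambiguous reads, which did not overlap between the groups, as a covariate 4 genes passed. With that of unaligned reads, which overlapped (11.1 to 16.7% in ADF+ENZ, exact two-sided permutation test, p = 0.200), 5 passed.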

How the data were processed

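RNA was sequenced as paired ends from 16 tumours, 4 a group. The deposited values are raw counts per gene. Per the submitters' processing notes, the tools were HISAT2, featureCounts, Trim Galore and DESeq2, with no versions, and the builds GRCh38 and mm39, with no roles. No source used here gives the strand setting, so overlapping and antisense genes cannot be separated. The 5 table rows that name no gene (3.44 to 5.26% ambiguous reads in the 8 libraries, for example) were kept out of tests. Their names are those that htseq-count writes, while the notes name featureCounts, so the counting tool is not settled. Symbols were found for 52081 of 55414 IDs in an annotation of an earlier build. Of 34 gene lists and 17 marker lists, 3 entries were not found.

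All 16 libraries were fitted in 1 model in edgeR 4.0.16 (R 4.3.3): TMM, filterByExpr (minimum count 10, total 15), robust quasi-likelihood, Benjamini-Hochberg over 18946 genes, adjusted p under 0.05. Fitted log2 changes left the prior count at the edgeR default. A prior count of 2 went only into the log2 CPM of the principal components and of the length and GC trends. Alternatives used DESeq2 1.42.0, limma 3.58.1, other filters, covariates and left-out libraries. The fits were tested on simulated data. Between replicates of a group, chi-square per degree of freedom was 10.1 to 23.0, so no library repeats another. Members and lists were chosen with earlier results of these data known. Named genes were the 12 largest changes each way (at least 1 CPM, groups not overlapping), the 12 smallest p, up to 4 members per list, 10 interaction genes and a set of genes of these pathways. Some genes are not reported here. Figures used matplotlib 3.10.9 in Python 3.11.15.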

Additional observations from a re-analysis of the deposited data

Results flagged for a closer look

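In groups of 4, a library was set aside for a closer look when its gap to the nearest other library, as a share of the group's range, exceeded Dixon's 95% critical value. Of 232 such checks on library measures, marker sums and named genes 14 passed, and chance alone gives about 1 in 20. Unaligned reads were 16.7% in ADF+ENZ replicate 3, the highest of its group, and ambiguous reads 5.26% in ENZ replicate 2, also the highest. ADF+ENZ replicate 3 was the highest of its group for Vcan (1958 CPM) and Tgfbr3 (819.6 CPM) and the lowest for Exoc3l4 (1.53 CPM). ADF+ENZ replicate 4 had the highest sums of T cell markers (28.3 CPM) and of B and plasma cell markers (24.9 CPM) and the lowest sum of erythroid markers (10.8 CPM). ADF+ENZ replicate 1 was highest for Ddit3 (11.9 CPM). ENZ replicate 1 was highest for Kcne3 (8.499 CPM) and Jade2 (99.0 CPM) and lowest for Sdc2 (189.5 CPM), ENZ replicate 2 was highest for Nr3c1 (154 CPM) and ENZ replicate 4 lowest for Erlec1 (53.9 CPM).

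By the interaction test at an adjusted p under 0.05, the effect of fasting differed with and without enzalutamide for 31 of 91 named genes. Over all genes tested 3.10% passed. The naming rule took 10 genes by their interaction p and others by their ADF+ENZ minus ENZ change. So the count of 31 follows in part from the choice of genes. The interaction, as a log2 difference of the fasting effects, was positive for Tmem71 (1.41), Fn1 (1.36), Fkbp5 (1.79), Jade2 (1.09), Zbtb16 (2.51), Sdc2 (0.86), Erlec1 (0.75), Chst11 (1.07), Zfp516 (0.38), Klf9 (1.31), Bcl6 (0.79), Pik3r1 (0.80), Hspa4l (0.72), Herc3 (1.04), Atg9a (0.42), Timp2 (0.79), Scd1 (0.79), Scd2 (0.73), Ldha (0.77), Vegfa (0.83), Hk2 (0.69), Ly6a (1.25), Tmem106b (0.97), Cblb (0.93), Tob2 (0.89) and Aplp2 (0.68). It was negative for Exoc3l4 (-1.94), Tal1 (-1.57), Styk1 (-0.99), Cx3cl1 (-0.84) and Ddx11 (-0.83). Of the 61 genes that passed both this test and ADF+ENZ minus ENZ, 34 passed the interaction without ADF+ENZ replicate 3 and 29 passed it in all 16 leave-one-out fits. With the proportion of reads outside features as a covariate, 0 genes passed, and its part was not tested further.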

How the results depend on the processing

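With all libraries, 206 genes passed in ADF+ENZ minus ENZ. DESeq2 called 693, the fit on only the 8 libraries compared 54, and the covariate for reads in no feature left 43. Chosen after seeing the data, covariates for unaligned and ambiguous reads left 5 and 4, removal of length and GC trends 118 (8 without ADF+ENZ replicate 3), and limma-voom without ADF+ENZ replicate 3 gave 113. Leaving out each library gave 20 to 358. For the interaction, 587 genes passed, against 1363 in DESeq2, 0 with the covariate for reads in no feature, 128 with a skeletal muscle covariate, 192 with that for ambiguous reads and 350 in protein-coding genes alone, and 148 to 908 with each library left out. For ADF minus Vehicle, 1707 passed, against 6, 458, 2 and 1106 with covariates for reads in no feature, muscle, ambiguous and unaligned reads, 1119 in protein-coding genes alone, and 610 to 1927 with each library left out. The causes were not tested. Other settings stayed within 1.5 times each count. All 206 genes kept their direction in the 8 leave-one-out fits, and 18 passed in all. Of 62 named genes that passed, 62 were kept with DESeq2 size factors, 59 in limma-voom, 30 on only the 8 libraries and 15 without ADF+ENZ replicate 3, and none reversed. No paired analysis was possible because the labels give the groups no shared replicate numbers. The ambiguous share did not overlap between ENZ and ADF+ENZ, so its part and that of fasting cannot be told apart. At few counts, as for Pdk4, fitted changes are imprecise.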

Other observations

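Some genes fell outside the naming rule and were picked after their values were seen. The ID without a symbol, ENSMUSG00000118671, had the smallest p of the comparison, at 25.1, 26.6, 28.7 and 31.0 CPM in ENZ and 80.1, 61.5, 88.6 and 78.7 CPM in ADF+ENZ (log2 change 1.47 ± 0.16 SE, adjusted p = 0.00161, and 0.0119 without ADF+ENZ replicate 3). It did not pass in ADF minus Vehicle (log2 change -0.12, adjusted p = 0.671), and its interaction was 1.59 ± 0.23 SE (adjusted p = 0.00515).

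Cav1, the main protein of caveolae, was nearly constant in ENZ, at 477, 476, 483 and 477 CPM, and stood at 816, 549.7, 973 and 718 CPM in ADF+ENZ (log2 change 0.68 ± 0.13 SE, adjusted p = 0.0219, and 0.0997 without ADF+ENZ replicate 3). Its interaction was 1.02 ± 0.18 SE (adjusted p = 0.00891). Cd300lg, a surface glycoprotein of capillary endothelium, rose from 9.84, 10.7, 9.25 and 10.1 CPM in ENZ to 19.4, 17.0, 13.0 and 20.4 CPM in ADF+ENZ (log2 change 0.82 ± 0.17 SE, adjusted p = 0.0250), and passed without ADF+ENZ replicate 3 (adjusted p = 0.0336). Npc1, which exports cholesterol from lysosomes, was at 89.7, 104, 91.3 and 101 CPM in ENZ and 135, 111, 145 and 119 CPM in ADF+ENZ (log2 change 0.40 ± 0.09 SE, adjusted p = 0.0426). Castor2, a regulator of mTORC1 outside the mTOR list, was at 50.2, 59.9, 47.0 and 50.7 CPM in ENZ and 80.2, 67.2, 85.3 and 63.5 CPM in ADF+ENZ (log2 change 0.51 ± 0.10 SE, adjusted p = 0.0250). Neither Npc1 nor Castor2 passed without ADF+ENZ replicate 3 (adjusted p = 0.201 and 0.135).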
